A study of Saccharomyces cerevisiae with 30 samples.

Results

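The *mrc1-AQ cdc45-2A* double mutant strain of budding yeast was compared with wild type 20 min after both had been released from a block in hydroxyurea (HU, a drug that stalls replication forks by depleting nucleotides). The comparison rests on 4 of the 30 TrAEL-seq libraries of the series, chosen by their labels alone, with 2 replicates of each strain. Cells of both strains were arrested in G1 phase with alpha factor, released into 200 mM HU, and sampled 20 min after the drug had been washed away. The double mutant carried *mrc1-AQ* and *cdc45-2A* and the wild type neither, so the effect of one allele alone cannot be read from these libraries. The other libraries set beside them are both strains in the HU block and at 40 min. They also include 2 strains at 20 min that carry *pol1-1A*, one without and one with the same pair of alleles (the triple mutant). Both *pol1-1A* strains in the HU block and at 40 min entered the filter and the fit of 24 libraries. Each strain had 2 replicates at each time. Libraries of asynchronous wild type cells, the spike-in, were used for an alternative scaling and for comparison. The labels call the samples replicates without saying that they came from separate cultures, and p-values measure the spread between these samples.

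TrAEL-seq captures 3′ ends of DNA, most of them on the leading strand at replication forks, and so maps where forks stand in a population of cells. Budding yeast starts replication at many origins, from each of which forks leave in both directions. When forks stall in HU, the checkpoint kinase Rad53 is activated, holds back origins that have not yet fired and acts on stalled forks. Mrc1 travels with the fork and passes the signal to Rad53, and its AQ allele has lost the sites that the upstream checkpoint kinases phosphorylate. Cdc45 is part of the replicative helicase, and its 2A allele has lost sites through which it binds Rad53. Signal is given as RPM, the reads scaled to a common total of mapped reads. The reads of both strands are summed, so the signal holds no fork direction. Because each library is scaled to its own total, more signal at some places means less at others.

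The 4 libraries differed in depth. Wild type had 4474033 and 4457819 mapped reads, and the double mutant 9183888 and 9175153. The median 2 kb window held 283 and 180 reads in wild type and 802 and 646 in the double mutant. Each replicate was processed in one pool with a spike-in from asynchronous wild type cells, and within a pool the double mutant had 2.05 and 2.06 times as many reads as wild type. For each spike-in read there were 3.51 and 8.18 wild type reads and 7.21 and 16.8 double mutant reads. Within a pool each strain had an adaptor of its own, so strain and adaptor cannot be told apart.

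Over the whole genome, signal in the double mutant was less concentrated than in wild type. Of 12079 separate windows of 1 kb, 11532 reached a mean of 5 RPM over 24 libraries and were tested. The tenth of windows with most signal held 45.3% and 46.5% of the signal in the 2 wild type libraries and 36.1% and 38.7% in the 2 double mutant libraries. The median window stood at 33.8 and 21.9 RPM in wild type and at 46.0 and 37.6 RPM in the double mutant. At the other end, the 99th percentile was 511 and 484 RPM in wild type against 374 and 398 RPM in the double mutant. The libraries of the 2 strains did not overlap in any of these measures. The middle of the distribution thus stood higher and the top lower in the double mutant (mean differences of 14.0 RPM at the median and -111 RPM at the 99th percentile), while the libraries overlapped at the tenth percentile (10.7 and 9.87 RPM against 9.80 and 10.7 RPM). The coefficient of variation over windows was 1.40 ± 0.0433 in wild type and 1.13 ± 0.0611 in the double mutant (mean ± SD, n = 2, exact permutation test, two-sided, p = 0.33, the smallest p that 2 libraries against 2 allow).

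In a fit of all 24 libraries with limma on log2(RPM + 1), 4852 windows (42.1% of those tested) passed an adjusted p of 0.05. Signal was higher in the double mutant in 3204 windows (27.8%) and lower in 1648 (14.3%), and the median log2 difference over all windows was 0.10. Changes were large. Of the windows called higher 2887 differed by more than 1 on the log2 scale and 1445 by more than 2, and of those called lower 1398 and 516 did. The differences of the 2 replicates, each taken within its pool, had the same sign in 84.6% of all windows. Across windows, wild type replicates correlated at 0.95 and double mutant replicates at 0.98 (Pearson, log2 scale, windows being no independent replicates), and libraries of different strains at 0.63 to 0.67. The ratio of higher to lower calls depended on the scaling. Quantile normalization gave 3089 higher and 3039 lower windows, and edgeR on the recovered reads 2833 (24.6%) and 3068 (26.6%). A replicate block by pool called 3731 (32.4%) higher and 2187 (19%) lower. With signal scaled to spike-in reads and the same block, 6033 (52.3%) were called, 5606 (48.6%) higher and 427 (3.7%) lower, the median of all windows then standing at 1.08. Without double mutant replicate 2 the calls were 2648 higher and 1057 lower. In each of these settings 0 of the 4852 windows were called in the opposite direction.

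Where windows stood relative to origins separated the higher from the lower ones. Origins were placed at the midpoints of 136 pairs of neighbouring peaks in the wild type HU block libraries, none of which is among the 4 libraries compared. The profile held 304 peaks, and those in no such pair gave no origin. Windows counted as far from an origin can therefore lie near a wild type peak. In the first kb from an origin the signal was 36.2 and 48.5 RPM per kb in wild type and 86.9 and 87.2 RPM per kb in the double mutant. In the step from 2 to 3 kb it was 131.9 and 115.8 RPM per kb in wild type and 259 and 249.5 RPM per kb in the double mutant. Both double mutant libraries lay above both wild type libraries at these distances, and the log2 differences were 1.06 ± 0.24 and 1.04 ± 0.17 (± SE, limma, adjusted p = 0.00164 and 0.000182).

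Farther out the order of the strains turned around. Between 9 and 10 kb the signal was 225 and 260 RPM per kb in wild type and 95.6 and 89.2 RPM per kb in the double mutant, a log2 difference of -1.39 ± 0.24 (adjusted p = 0.000231), or 0.382 of the wild type level. Of 25 steps of 1 kb, 11 were called (44%), namely 4 higher from 0 to 4 kb and 7 lower from 6 to 13 kb. Signal crossed between 5 and 6 kb, where wild type had 307 and 236 RPM per kb and the double mutant 245 and 270 RPM per kb. The highest step was 6 to 7 kb in wild type replicate 1, 7 to 8 kb in replicate 2, 3 to 4 kb in double mutant replicate 1 and 4 to 5 kb in replicate 2. Both wild type maxima were thus farther from origins than both double mutant maxima, and wild type replicate 2 was the farthest. From 13 to 25 kb no step passed the test, and the wild type replicates themselves differed there, with 47.1 and 27.9 RPM per kb between 20 and 21 kb. With signal scaled to the spike-in reads of the pool and the pool as a block, 13 steps were called higher and 0 lower, and the step of 9 to 10 kb had a log2 difference of -0.35.

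**Figure D1:**
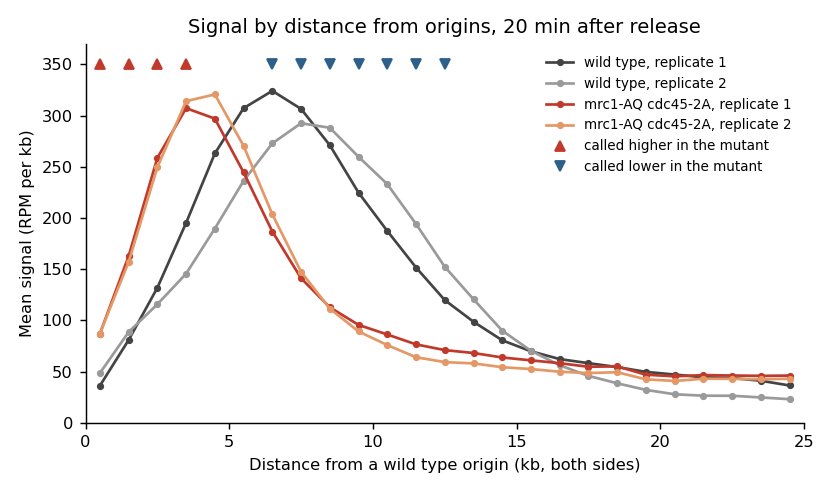
Mean signal (RPM per kb) in each of the 4 libraries against distance from wild type origins in 1 kb steps, both sides together, with triangles over the steps called in the limma fit. The double mutant libraries peak between 3 and 5 kb and the wild type libraries between 6 and 8 kb, with 4 steps called higher near origins and 7 called lower from 6 to 13 kb.

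Single windows followed the same order. Of 543 windows 2 to 4 kb from an origin, 372 (68.5%) were called higher and 3 lower, against 27.8% and 14.3% of all windows. Of 756 windows 9 to 12 kb away, 17 were called higher and 551 (72.9%) lower. Windows 12 to 16 kb away included 372 called lower of 892, and those 16 to 20 kb away 98 called higher and 49 called lower of 764. The share called higher was therefore above that of all windows close to origins and below it from 6 to 20 kb, where the share called lower was above that of all windows up to 16 kb.

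Many higher windows also lay far from wild type origins. Beyond 20 kb, 2075 of 6718 windows (30.9%) were called higher, close to the 27.8% of all windows, and 98 (1.46%) lower, against 14.3% of all windows. The share called higher was 19.0% from 20 to 30 kb, 32.6% from 30 to 50 kb and 35.6% beyond 50 kb. These distant windows made up 58.3% of all windows tested and 64.8% of those called higher. They held 18.1% and 15.4% of the signal in wild type and 33.0% and 31.2% in the double mutant. The share of signal between 6 and 16 kb was 48.8% and 56.0% in wild type and 24.9% and 24.7% in the double mutant, and the share within 6 kb was 28.7% and 25.0% against 37.8% and 40.2%. The strains did not overlap in any of the 3 shares. For comparison, asynchronous wild type cells of the same pools held 58.7% and 51.6% of their signal beyond 20 kb.

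**Figure D2:**
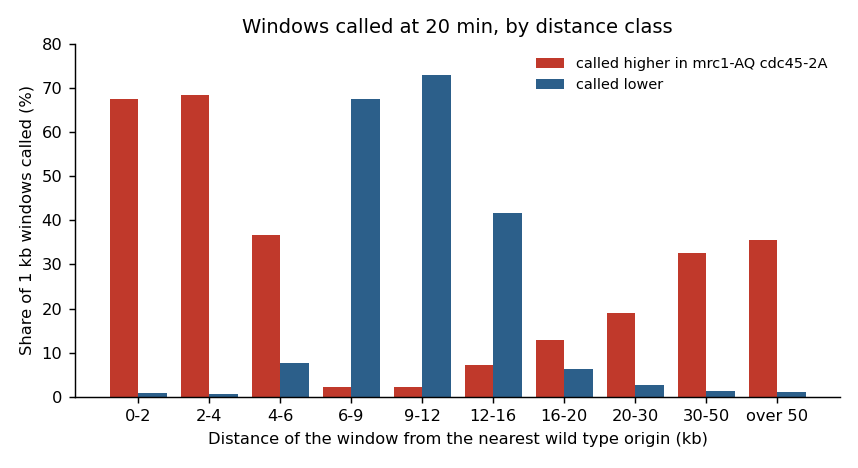
Share of 1 kb windows called higher or lower in the double mutant at 20 min (% of the windows tested in each class), by distance from the nearest wild type origin. Lower calls concentrate at 6 to 16 kb, and higher calls within 6 kb, while beyond 20 kb 30.9% of the windows were called higher, against 27.8% of all windows.

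The distant signal was not spread evenly. Peaks of the double mutant in the HU block, read from other libraries of the same strain, marked where part of it stood. Of 1158 windows more than 20 kb from a wild type origin but within 5 kb of such a peak, 1034 (89.3%) were called higher, with medians of 24.1 and 17.7 RPM in wild type and 114 and 105 RPM in the double mutant. Of the 5560 distant windows with no such peak within 5 kb, 1041 (18.7%) were called higher and 87 lower, with medians of 17.0 and 13.0 RPM in wild type and 18.9 and 17.0 RPM in the double mutant. The 1158 windows held 15.1% and 14.5% of all double mutant signal, and the more numerous 5560 windows 17.9% and 16.7%. In wild type these shares were 4.22% and 3.64% for the 1158 windows and 13.9% and 11.7% for the 5560. The double mutant HU block held 125 peaks with no wild type HU block peak within 10 kb. In 10 kb around these sites the median signal at 20 min was 254 and 185 RPM in wild type and 1139 and 1017 RPM in the double mutant. The libraries of the strains did not overlap at 121 of the 125 sites, and the double mutant was higher at 117 of them and lower at 4. Of all 1 kb windows tested, a smaller unit, 44.1% did not overlap with the double mutant higher and 33.8% with it lower. These sites were picked by a strain difference in the HU block, so more double mutant signal there partly follows from the choice. The same holds for the 1158 windows, which were chosen as near a double mutant HU block peak and far from a wild type origin.

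Peaks of the 20 min profiles themselves were counted as maxima of the smoothed signal with a prominence of at least the mean window. There were 270 and 263 in wild type and 511 and 490 in the double mutant, a ratio of 1.88 of the means (exact permutation test, two-sided, p = 0.33). Within 12 kb of wild type origins the numbers were 242 and 233 in wild type and 288 and 289 in the double mutant. Beyond 20 kb there were 20 and 23 peaks in wild type and 182 and 162 in the double mutant. Most of the additional peaks of the double mutant were thus far from the wild type origins called here. On all 16 chromosomes both double mutant libraries had more peaks than both wild type libraries, and the ratio ran from 1.23 on chromosome III to 2.52 on chromosome XIV. The median distance of the peaks within 12 kb from their origin was 6.6 and 7.8 kb in wild type and 3.9 and 4.1 kb in the double mutant.

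The longest runs of windows called higher lay far from wild type origins. There were 432 such runs, with a median length of 8 kb, and 190 of them were at least 10 kb long. The longest covered 30 kb of chromosome VI (chrVI:46001-76000, build R64), with 29 of its windows called and the nearest wild type origin 43.1 kb away. It holds *ACT1* (actin), *TUB2* (beta-tubulin) and *HAC1* (a transcription factor of the unfolded protein response). Its mean signal was 12.8 and 11.5 RPM per window in wild type and 70.2 and 63.9 RPM in the double mutant. The second, 28 kb of chromosome XII (chrXII:1001001-1029000) with *SIR3* (a silencing protein), had its nearest wild type origin 207 kb away and means of 23.2 and 18.9 RPM against 109 and 101 RPM. The third, 27 kb of chromosome XVI (chrXVI:173001-200000) with *DDC1* (a subunit of the checkpoint clamp), had means of 15.6 and 12.2 RPM against 62.2 and 57.3 RPM. In the HU block the median log2 difference over the windows of these runs was 1.34, 1.38 and 1.37.

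Runs of lower windows were shorter, and the longest of them flanked wild type origins. Of the 1648 windows called lower 98 (5.95%) lay more than 20 kb from an origin. There were 259, with a median length of 6 kb, and 44 reached 10 kb. The 3 longest were 20, 20 and 17 kb long, and the centre of their closest window was 4.4 to 5.6 kb from an origin. The 2 on chromosome VI (chrVI:143001-163000 and chrVI:173001-193000) lay on either side of one origin at position 167900, the first holding *RPN11* (a proteasome subunit) and the second *FAB1* (a lipid kinase). The first had means of 233 and 248 RPM per window in wild type and 76.9 and 73.1 RPM in the double mutant, and the second 282 and 333 RPM against 99.1 and 97.6 RPM. The third (chrXIV:615001-632000), with *CIT1* (citrate synthase) and *SIS1* (a chaperone), lay between origins at 609400 and 635900, with means of 298 and 297 RPM against 73.1 and 62.2 RPM. Both double mutant libraries lay far below both wild type libraries in each of the 3 runs.

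**Figure D3:**
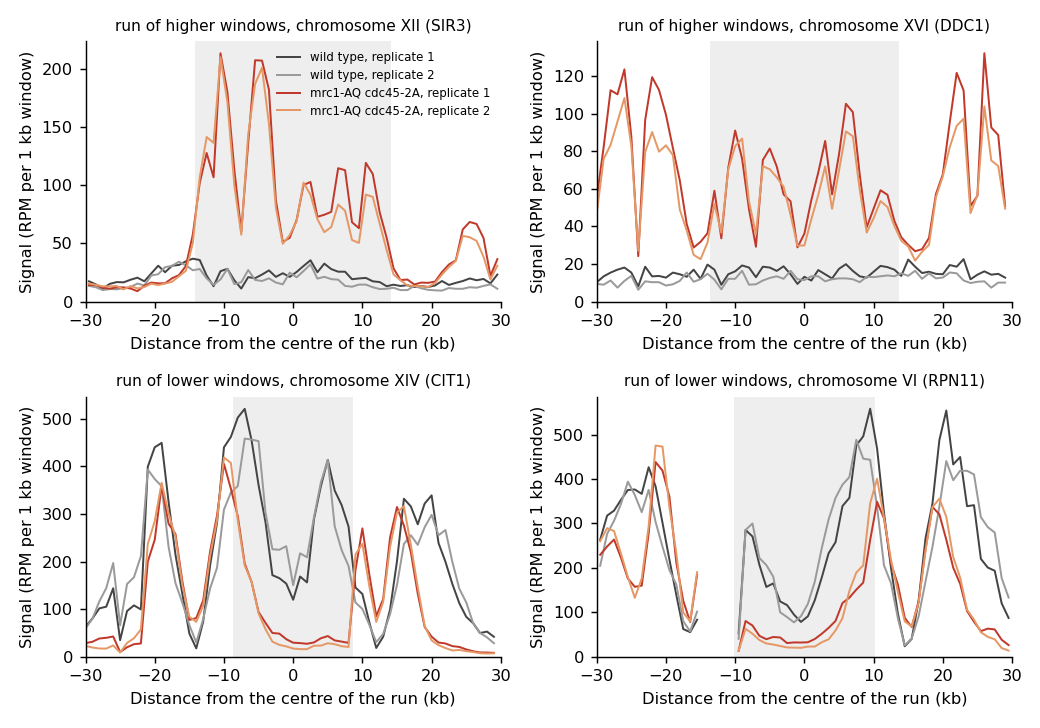
Signal (RPM per 1 kb window) in the 4 libraries against distance from the centre of a run (kb), for 2 of the longest runs of windows called higher and 2 called lower, with the run in grey and windows below the filter left blank. In the upper panels the double mutant has several peaks where wild type stays low, and in the lower panels wild type signal is high where the double mutant is low.

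Among single windows the largest increases were at places where wild type had little signal, which partly follows from ranking by log2 difference. The highest was chrXIV:129001-130000 in *SEC2* and *BNI1* (factors of polarised growth), beside *TOF1*, which encodes a partner of Mrc1 at the fork. Its 1 kb window had 15.2 and 6.73 RPM in wild type and 147 and 136 RPM in the double mutant, a log2 difference of 3.67 ± 0.39 (limma, adjusted p = 1.3e-07). The window at chrX:301001-302000 in *SMC3* (a cohesin subunit) had 15.0 and 10.5 RPM in wild type and 157 and 128 RPM in the double mutant (3.40 ± 0.34). The window in *QDR2* (a multidrug transporter) at chrIX:133001-134000 had 29.7 and 16.8 RPM against 262 and 229 RPM (3.39 ± 0.32). All double mutant values were several times the wild type values there. The other 2, in *SEC15* (an exocyst subunit) on chromosome VII and *DMA2* (a ubiquitin ligase) on chromosome XIV, had log2 differences of 3.36 and 3.35. The nearest wild type origin was 27.5 to 102 kb from these 5 windows and the nearest double mutant HU block peak 0.90 to 4.30 kb.

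The largest decreases were at windows with strong signal in wild type, which again partly follows from the ranking. In chrXIV:627001-628000, at *RLP7* (ribosome biogenesis) and *DOM34* (release of stalled ribosomes), wild type had 358 and 366 RPM and the double mutant 38.9 and 23.4 RPM, a log2 difference of -3.54 ± 0.41 (adjusted p = 4.13e-07). In chrXIV:645001-646000 at *PRP2* (a splicing helicase) the values were 199.6 and 266 RPM against 28.0 and 18.3 RPM (-3.29 ± 0.55). Both windows lay 8.40 and 9.60 kb from the origin at 635900, one on each side of it. The other 3 windows were in *RRN11* on chromosome XIII, *REA1* on chromosome XII and *UTP20* on chromosome II, with log2 differences of -2.97, -2.92 and -2.89. The *RRN11* window was 53.4 kb from the nearest called origin, the others 8.40 to 13.0 kb.

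Around origins the double mutant had more signal, and less difference between most origins, than wild type. In 10 kb centred on each of the 136 origins, 102 (75%) were called higher and 0 lower in the limma fit, which estimated one spread for all origins, and 106 had an unadjusted p under 0.05. The difference was above 0 at 134 origins, with a median log2 difference of 0.77. The median origin had 1337 and 1157 RPM in wild type and 2196 and 2219 RPM in the double mutant. In the wild type libraries the 90th percentile of the origins was 3.6 and 2.9 times the tenth, and in the double mutant 1.4 times in both. Single double mutant origins lay outside that band, and their means ran from 1186 RPM on chromosome X at 204100 to 3251 RPM on chromosome IV at 484200. The coefficient of variation over origins was 0.436 and 0.396 in wild type and 0.155 and 0.147 in the double mutant (exact permutation test, two-sided, p = 0.33). In the HU block it was 0.467 and 0.499 against 0.259 and 0.275, so the double mutant origins were more even than wild type at both times. A window of 10 kb counts a fork only while it is within 5 kb of its origin, and at 20 min more of the wild type signal lay beyond that distance.

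Origins that had been weak in the wild type HU block differed most. The 55 origins in the lowest 40% by that signal had medians of 826 and 719 RPM at 20 min in wild type and 2199 and 2204 RPM in the double mutant, and 53 of them were called higher (median log2 difference 1.62). The other 81 had medians of 1697 and 1328 RPM in wild type and 2196 and 2230 RPM in the double mutant, and 49 were called higher (0.41). Stronger and weaker origins thus differed 2.06- and 1.85-fold in wild type and 0.999- and 1.01-fold in the double mutant. Across the 136 origins the log2 signal at 20 min correlated with that of the wild type HU block at 0.92 and 0.84 in wild type and at 0.0013 and 0.096 in the double mutant (Pearson, a description over origins that share each library). In the HU block itself the double mutant still followed the wild type order of origins, with correlations of 0.87 and 0.89.

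**Figure D4:**
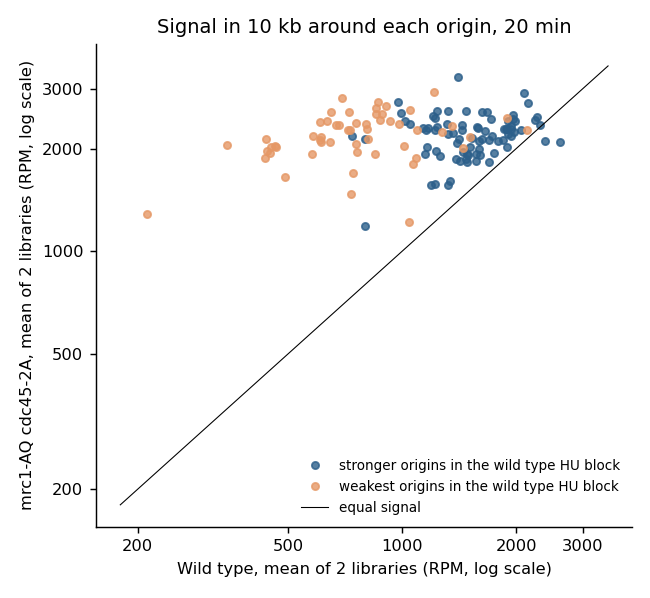
Signal in 10 kb around each of 136 origins at 20 min (RPM, log axes), the mean of 2 double mutant libraries against the mean of 2 wild type libraries, coloured by strength in the wild type HU block (81 stronger and 55 weakest origins). Wild type values spread widely along the horizontal axis while double mutant values stay in a narrow band, and 134 of 136 points lie above the line of equal signal.

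The 5 origins with the largest differences were all among the weakest 55. At the origin at position 212700 of chromosome IV, between *SCM3* and *RGT2*, the 10 kb signal was 229 and 194 RPM in wild type and 1338 and 1231 RPM in the double mutant (log2 difference 2.60 ± 0.17). In the HU block it had been 576 and 569 RPM in wild type and 1093 and 910 RPM in the double mutant. At position 74000 of chromosome IX, beside *ATG32* (the mitophagy receptor), it was 369 and 319 RPM against 2075 and 2026 RPM (2.57 ± 0.17). In the HU block this second site had 708 and 719 RPM in wild type and 2072 and 2254 RPM in the double mutant. Its double mutant signal had thus not risen since the HU block, whereas wild type signal was lower at 20 min at both sites. At 20 min both sites stood near or below the median double mutant origin in the double mutant and at a very low level in wild type. The other 3 lay on chromosome X at 67700, chromosome XV at 36100 and chromosome IV at 123700, with log2 differences of 2.28, 2.17 and 2.17. The 2 origins with less signal in the double mutant, on chromosome VIII at 111100 (-0.31, limma, adjusted p = 0.0848) and chromosome XVI at 553100 (-0.18, 0.326), were not called. The first was called lower with the pool as a block (adjusted p = 0.013) and with the 8 libraries of 20 min (0.0238). Spike-in scaling with the block put both above 0.

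On single arms, that is, on one side of an origin up to 20 kb, the highest point of the smoothed signal was taken as the fork position. Arms with a second peak were left out by the wild type HU block profile alone. The highest point of a double mutant arm may therefore belong to a fork from elsewhere, which was not tested. Of 132 arms of the 81 stronger origins, 80 were called closer to the origin in the double mutant (60.6%) and 2 farther (1.52%), or 62.1% in all (limma, adjusted p under 0.05). The quartiles over arms were 5800 and 7100 bp in wild type replicate 1 and 7200 and 8525 bp in replicate 2. In the double mutant they were 3900 and 4800 bp in replicate 1 and 4200 and 5000 bp in replicate 2. At 125 arms both double mutant libraries lay closer than both wild type libraries, and at 3 arms both lay farther. Forks had moved by a median of 3600 and 4600 bp since the HU block in wild type and by 2000 and 2200 bp in the double mutant. Left and right arms were alike, with median differences of -2550 and -2600 bp, and the median was negative on every chromosome, from -1650 bp on chromosome VI to -3500 bp on chromosome VIII. The number of calls depended on single libraries and was 16 without double mutant replicate 1, 27 without double mutant replicate 2, 44 without wild type replicate 2 and 99 without wild type replicate 1, 2 of the calls being farther in each case.

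The 5 called arms with the largest differences included both that were farther, and their sizes depended on how a fork position was read. Right of the origin at 199300 on chromosome VI the highest point was at 7100 and 7500 bp in wild type and at 19900 bp in both double mutant libraries, close to the limit of the arm (difference 12600 ± 470 bp, adjusted p = 1.58e-05). In the HU block it had already stood at 18500 and 18700 bp in the double mutant, against 2700 and 2900 bp in wild type. Left of the origin at 649200 on chromosome XIII the wild type values were 7000 and 7200 bp and those of the double mutant 17800 and 18000 bp, after 1600 and 1800 bp in the HU block. With arms of 15 kb the first of these differences was 2300 bp and not called (adjusted p = 0.452) and the second 4900 bp, and by the median position of the signal they were 2594 and 2882 bp. Right of that same origin on chromosome XIII the double mutant stood closer, at 2800 and 3200 bp against 7000 and 8400 bp. The other 3 arms were closer. Left of 215000 on chromosome IX wild type stood at 11200 bp in both libraries and the double mutant at 3400 and 3800 bp. Right of 435800 on chromosome IV the wild type libraries disagreed, with 20000 and 8200 bp against 4000 bp in both double mutant libraries. Left of 485000 on chromosome VII the values were 6200 and 9000 bp against 2200 and 2000 bp. The arms on chromosomes IV and VII lost their calls without either double mutant replicate (limma, adjusted p = 0.131 and 0.113 on IV, 0.0733 and 0.06 on VII), that on VII also without wild type replicate 2 (0.0605), and that on IV with no origin left out (0.0553).

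Signal also differed between chromosomes, and less so in the double mutant. In wild type the mean per 1 kb window ran from 56.3 and 50.5 RPM on chromosome XIV to 131 and 126 RPM on chromosome III, a ratio of 2.33 and 2.49. In the double mutant chromosome XIV was again lowest, with 62.0 and 59.4 RPM, and the highest was chromosome IX with 103 and 99.2 RPM, a ratio of 1.65 and 1.67. The coefficient of variation over the 16 chromosomes was 0.240 and 0.263 in wild type and 0.129 and 0.133 in the double mutant.

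Of the 16 chromosomes 5 passed the test (31.2%), 3 lower (18.8%) and 2 higher (12.5%) in the double mutant. Chromosome III fell from 131 and 126 RPM to 99.96 and 97.5 RPM, a log2 difference of -0.38 ± 0.08 (limma, adjusted p = 0.00123). Chromosome X fell from 109.8 and 106 RPM to 90.2 and 88.1 RPM (-0.28 ± 0.07, adjusted p = 0.0048) and chromosome VI from 109 and 105 RPM to 91.6 and 89.5 RPM (-0.24 ± 0.07, adjusted p = 0.00901). Chromosome XVI rose from 70.6 and 63.4 RPM to 88.4 and 85.4 RPM (0.38 ± 0.09, adjusted p = 0.00381) and chromosome XI from 77.0 and 69.6 RPM to 89.1 and 86.4 RPM (0.26 ± 0.09, adjusted p = 0.0237). None of these 5 overlapped between strains, but that does not set them apart. Chromosomes I and IX were the only ones of the 16 on which the libraries of the strains overlapped. Chromosome V had a difference of -0.17, chromosomes II, IV, VIII, XIV and XV lay between 0.19 and 0.22, and chromosomes I, VII, IX, XII and XIII between -0.10 and 0.11, none of them called. Without wild type replicate 2 the calls were 3 lower and 0 higher, and without double mutant replicate 2 they were 1 lower and 1 higher. With the median of the windows in place of the mean no chromosome was called (0 of 16), and the differences were -0.37 on III, -0.07 on X, 0.71 on VI, 0.88 on XVI and 0.31 on XI. A replicate block by pool called 11 chromosomes (68.8%), 7 higher and 4 lower. Scaled to spike-in reads with that block, all 16 differences were above 0, and those of chromosomes III, X and VI were 0.66, 0.76 and 0.80.

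Origins per length differed between the called chromosomes. Chromosomes III and X had 1.6 and 1.5 wild type origins per 100 kb, whereas chromosome VI, also lower, had 1.1 and chromosomes XI and XVI, which were higher, 1.2 each. Across the 16 chromosomes origin density and log2 difference correlated at -0.53 (Pearson) and -0.48 (Spearman), and at -0.60 without chromosomes IX and XIV, a description with no test because all chromosomes come from the same libraries. Windows called lower made up 26.6% of those on chromosome III, 21.3% on X, 20.8% on VI and 12.5% on XVI. Windows called higher made up 18.6%, 21%, 32.4% and 34.3%. Over all chromosomes 27.8% of windows were called higher and 14.3% lower, so the shares of chromosome VI were above both.

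**Figure D5:**
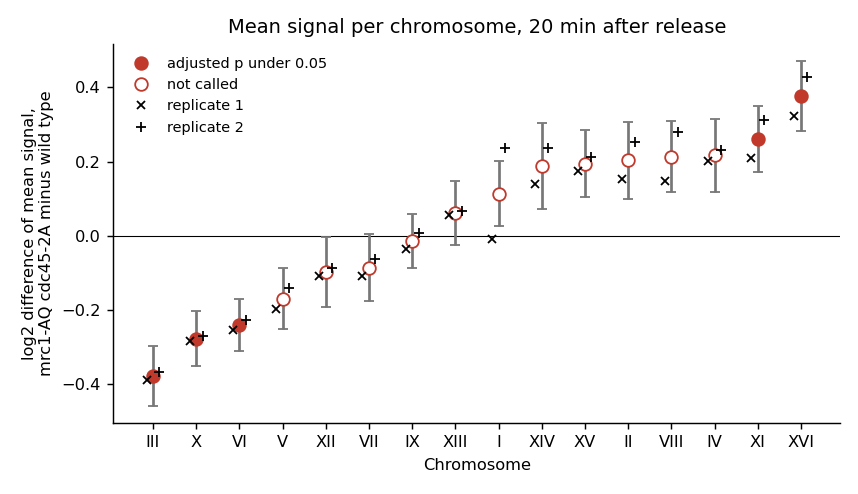
Log2 difference of the mean signal per chromosome, double mutant minus wild type at 20 min, ordered by size, with bars of ± 1 SE from the limma fit and crosses for each replicate within its pool. Chromosomes III, X and VI were called lower and XI and XVI higher on the scale of all mapped reads, while scaled to spike-in reads all 16 differences lay above 0.

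Other loci were described by counts. Of 298 windows with a tRNA gene, where forks are known to slow, 109 (36.6%) were called higher and 51 (17.1%) lower, against 27.8% and 14.3% of all windows, and their median log2 difference was 0.31. Of 696 windows within 30 kb of a chromosome end, 178 (25.6%), close to the share of all windows, were called higher and 41 (5.89%) lower (median 0.51). Of 60 windows beside the rDNA array, 9 (15%) were called higher and 16 (26.7%) lower (median -0.60). Repeated sequence had been left out of the deposited windows, so that the windows near chromosome ends and the rDNA are those that remained.

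The strain difference at 20 min was set beside that at the other times. In the HU block 2946 windows (25.5%) were called, 1877 higher (16.3%) and 1069 lower (9.27%), and at 40 min 3704 (32.1%), 2178 higher (18.9%) and 1526 lower (13.2%). Of the 3204 windows higher at 20 min, 1519 were called higher and 251 lower in the HU block, and 996 higher and 301 lower at 40 min. Of the 1648 windows lower at 20 min, 376 were called lower and 71 higher in the HU block, and 115 lower and 515 higher at 40 min. The difference itself differed between 20 min and the HU block in 2012 windows (17.4%), 1320 (11.4%) more positive and 692 (6%) more negative at 20 min. The pool as a replicate block gave 3632 (31.5%), 1990 (17.3%) more positive and 1642 (14.2%) more negative, and leaving out wild type replicate 2 gave 1280. More negative windows were 379 in that setting and 367 without double mutant replicate 2. Signal in the 10 kb around origins was the clearest case, with a median log2 difference of 0.04 in the HU block, 0.77 at 20 min and -0.05 at 40 min, and 119 of 136 origins passed the test of 20 min against the HU block. The share of signal beyond 20 kb was 19.1% and 16.0% in wild type and 27.6% and 25.1% in the double mutant in the HU block, and 38.3% and 36.0% against 44.2% and 43.2% at 40 min.

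The same 2 alleles were compared in *pol1-1A* cells, whose DNA polymerase alpha has lost a site that binds Rad53. These 4 libraries came from the same pools and share no sample with the comparison above. The triple mutant differed from *pol1-1A* in 6642 windows (57.6%), with 2793 higher (24.2%) and 3849 lower (33.4%). Of the 4852 windows called in *POL1* cells 3922 were called the same way in *pol1-1A* cells, which is 80.8% of the first list and 59.0% of the second, and 0 were called the opposite way. The origins were even there too, with coefficients of variation of 0.348 and 0.338 in *pol1-1A* and 0.157 and 0.174 in the triple mutant. Signal beyond 20 kb was 27.2% and 17.0% in *pol1-1A* and 28.7% and 27.4% in the triple mutant, so in this measure replicate 1 of *pol1-1A* lay close to the triple mutant. The tenth of windows with most signal held 36.7% and 45.0% in *pol1-1A* and 43.4% and 44.1% in the triple mutant. The coefficient of variation over windows was 1.05 and 1.38 against 1.34 and 1.37. In both measures the libraries overlapped, so the lower concentration found in *POL1* cells was not seen in *pol1-1A* cells. The contrast of the 2 differences called 0 windows in limma, with 558 at an unadjusted p under 0.05. Its median over all windows was nevertheless -0.75 on the log2 scale. With the pool as a block 0 windows were called and 2065 had an unadjusted p under 0.05. The 2 comparisons are thus not shown to be equal, and a smaller difference than these replicates resolve cannot be seen.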

How the data were processed

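The members and lists described here were chosen with earlier results of these data known. The authors trimmed reads (Trim Galore 0.6.5), mapped them (Bowtie2 2.4.1, build R64, per the submitters' processing notes), removed duplicates, truncated each to 1 nucleotide, left out repeated regions and deposited signal as RPM (reads scaled to a common total of mapped reads) in running windows of 2000 bp every 200 bp. All values (100%, within 0.01 of a read) were whole multiples of 1 read, and reads were recovered and split into bins of 200 bp, from which separate 1 kb windows were built. Windows with a mean of at least 5 RPM were tested on log2(RPM + 1), which understates changes of low windows, with limma 3.58.1 in a fit of 24 libraries and 12 groups, Benjamini-Hochberg adjusted, threshold 0.05. edgeR 4.0.16 on recovered reads was an alternative. Fork positions used the 8 libraries of 20 min. Profiles were smoothed over 15 windows (Savitzky-Golay, second order), peaks were 2 kb apart, and origins were midpoints of peaks 4 to 9 kb apart in the wild type HU block. Arms ran 20 kb from the 81 origins left after the lowest 40% by HU signal were removed. Arms whose wild type HU block profile had a second peak of at least 25% of the highest were left out. Double mutant profiles were not screened in this way.

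Libraries of one time and replicate number shared a pool, so the numbers pair the samples by processing batch. Differences between replicates correlated at 0.058 between wild type and double mutant at 20 min, and at 0.689 between wild type and *pol1-1A*. Counts were simulated for the 11532 windows of the 20 min comparison, with 50 windows changed at each size. Of these, 26 of 50 raised 4-fold and 26 of 50 lowered 4-fold were recovered, with 0 false calls. For 2-fold changes it was 1 of 50 raised and 0 of 50 lowered. Far fewer windows were changed there than the 4852 called in the data, so this recovery does not measure the power of the reported fit. Named were the 3 longest runs and 5 largest non-overlapping windows in each direction (at most 1 per 10 kb), all 16 chromosomes, the 5 called origins and 5 called arms (at most 1 per origin) with the largest differences, and 3 lists of loci. Gene positions come from a RefSeq table of the same build. Named origins of a textbook list and centromeres were not used here. Alternatives were the pseudocount, filter, scaling, normalization, replicate block, libraries in the fit, window size, origin set, peak rule and leaving out single libraries.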

Additional observations from a re-analysis of the deposited data

Results flagged for a closer look

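The strain difference itself differed between time points, by the contrast of the 2 differences in limma. Against the HU block this held at 20 min for 2012 windows of 1 kb, for 10 of 25 distance steps and for 119 of 136 origins (10 kb around each), and all 119 were more positive at 20 min. Against 20 min it held at 40 min for 3150 windows, for 11 distance steps and for 108 origins, of which 88 were more negative at 40 min and 20 more positive.

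Between chromosomes, 2 differed in this way from 20 to 40 min, chromosome III by 0.45 ± 0.11 and chromosome VI by 0.45 ± 0.10 (log2, limma, adjusted p = 0.00453 and 0.00236), both more positive at 40 min. Between *POL1* and *pol1-1A* cells 1 arm differed, left of the origin at 649200 on chromosome XIII, where the double mutant stood at 17800 and 18000 bp and the triple mutant at 12400 bp in both libraries.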

How the results depend on the processing

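Of the 4852 windows called, all were also called with the pool as a replicate block (5918 in all), 4332 after quantile normalization, 4062 with edgeR and 3631 with signal scaled to spike-in reads and the block, a setting that, like edgeR with the block and leaving out single libraries in the time and *pol1-1A* contrasts, was chosen after seeing the data. Windows of 2 kb gave 2478 calls of 5800 tested. Leaving out one library gave 3699 to 4159 calls for windows, 10 to 12 for distance steps, 82 to 125 for origins and 1280 to 1982 (without wild type replicates 2 and 1) for the change since the HU block, which the replicate block raised to 3632. The difference in the share held by the top windows ran from -9.78 to -7.18 percentage points. No other total of calls for windows, distance steps or origins moved by over 1.5 times in the alternatives run, but counts in one direction did. Windows called lower were 1648 in the reported fit, 3039 after quantile normalization, 3068 with edgeR, 3593 with edgeR and the block, 427 with spike-in scaling and the block, 2547 with the 4 libraries compared and 1057 without double mutant replicate 2. In the HU contrast, more negative windows were 692 in the reported fit, 367 without double mutant replicate 2, 379 without wild type replicate 2, 138 with spike-in scaling and 1642 with the replicate block. Spike-in scaling called 13 distance steps higher and 0 lower. The contrast with *pol1-1A* cells called 0 windows in each, with 103 to 2147 at an unadjusted p under 0.05.

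Calls for chromosomes, 5 in the reported fit, were 11 with the replicate block, 13 scaled to reads inside the windows, 10 with the 8 libraries of 20 min, 15 with spike-in scaling and the block, 0 for the median of the windows, and 2 to 4 without one library. Spike-in scaling with the block turned the differences of chromosomes III (0.66), V (0.87), VI (0.80), VII (0.95), IX (1.03), X (0.76) and XII (0.94) positive, which follows from the higher number of double mutant reads per spike-in read, and the median of the windows gave 0.71 on chromosome VI, whose cause was not tested. Calls for arms, 82, were 124 by the median position of the signal and 147 of 226 with no origin left out, both with another set of values, and 16 to 99 without one library. The ratio of peak numbers was 1.62 with a prominence of 2 times the mean window, 1.49 with 3 times the median window and 1.84 to 1.92 without one library. All named windows and the 5 named origins with the largest differences kept their direction and call under every alternative run. Of the 2 origins below 0, that on chromosome VIII gained a call with the replicate block and with the 8 libraries of 20 min, and spike-in scaling with the block gave 0.73 there and 0.86 at that on chromosome XVI, the second called. Of 50 results of the named arms under alternatives 43 kept their call and 7 lost it.

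With 2 libraries a strain a window without a call is not shown to be equal. The simulation recovered few 2-fold changes, but it changed far fewer windows than were called here, so the power of the reported fit was not measured. An origin set from a published annotation was not run.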
